A study of Mus musculus with 24 samples.

Results

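MicroRNA (miRNA) in serum exosomes, the small vesicles that cells release into blood, was compared between male BALB/c mice given vehicle for 9 days and for 3 days. The comparison used the 4 arrays titled control day 9 and the 4 titled control day 3, 8 of the 24 arrays of the series, and all 1881 mouse miRNAs on the one-colour array. The other groups, also of 4 arrays each, were control day 21 and mice dosed at 80 mg/kg with TSN (toosendanin, a plant triterpenoid known for liver toxicity) for 3, 9 or 21 days. No genetic change is stated for any group, and serum was drawn 24 hours after the last dose. The labels give no age. They do not say whether an array holds a single animal or a pool, so the p-values measure the spread between arrays. For the tests of single miRNAs, that spread was taken from all 24 arrays in their 6 groups. The 8 vehicle arrays lay on 1 slide and were read in 1 scan, with day 3 in slide row 1 and day 9 in slide row 2. Day and slide row therefore cannot be told apart, nor can days of dosing and the age of the mice.

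A miRNA guides an Argonaute protein to messenger RNAs, mainly through its seed, bases 2 to 8, and miRNAs that share a seed form a family with overlapping targets. Serum exosomes carry miRNAs from red cells, platelets, leukocytes, endothelium and liver, so their content reports on many tissues at once. Bulk arrays cannot tell fewer vesicles of one source from less of a miRNA in each vesicle. Levels are the log2 of an array's signal over that array's 75th percentile across 261 probes detected on every array. A difference of 1 is therefore a 2-fold change in a miRNA's signal relative to that percentile. A miRNA was tested (444 were) when all 4 arrays of at least 1 group in the series had it well above background, the scanner software's detection flag. It was called when limma's adjusted p was under 0.05.

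Mature sequences from RefSeq (GRCm38.p6) are shown for the miRNAs that the comparison turns on, with the seed in capitals. The let-7 members that were higher on day 9 share one seed.

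let-7g-5p: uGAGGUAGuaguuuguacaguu
let-7i-5p: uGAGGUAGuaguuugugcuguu
let-7c-5p: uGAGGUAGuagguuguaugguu
let-7e-5p: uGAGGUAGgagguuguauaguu

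Further seeds, those of miR-26 and of miR-130 with miR-301, each had several members higher.

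miR-26a-5p: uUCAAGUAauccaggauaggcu
miR-26b-5p: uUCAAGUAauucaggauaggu
miR-130a-3p: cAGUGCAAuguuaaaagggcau
miR-130b-3p: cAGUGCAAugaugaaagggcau
miR-301a-3p: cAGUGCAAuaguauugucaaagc

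Outside these families, the higher calls detected on every array with the smallest adjusted p were the following, together with miR-221-3p, which shares the miR-222-3p seed and was not called.

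miR-21a-5p: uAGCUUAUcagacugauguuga
miR-222-3p: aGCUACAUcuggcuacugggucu
miR-221-3p: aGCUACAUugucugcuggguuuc
miR-29b-3p: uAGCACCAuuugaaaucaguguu
miR-7020-5p: uGGGAUGGuggagagggugaccag

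The lower calls are shown for contrast, since those shown share no seed and are mostly rich in G and C.

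miR-149-3p: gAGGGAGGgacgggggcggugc
miR-7015-5p: uCUGUGCAguaggcuguggguuc
miR-3077-5p: cUGCGGACgggugggcgggcaggcc
miR-680: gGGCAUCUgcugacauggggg
miR-211-3p: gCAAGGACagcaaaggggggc

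On day 9, 42 miRNAs were higher and 19 were lower than on day 3, of 444 tested. These are 9.46% and 4.28% of the miRNAs tested. The median difference over all 444 was 0.04 on the log2 scale, and 121 had an unadjusted p under 0.05. The groups did not overlap for 79 miRNAs (17.8%), of which 55 were among the 61 calls. Detection on every one of the 8 arrays held for 160 miRNAs, of which 19 were higher (11.9%) and 8 were lower (5%), and their differences ran from -0.85 to 0.99. No called miRNA in that set changed by more than 2-fold, and the smallest call was a 1.26-fold difference. The standard error of a difference had a median of 0.19. Many calls did not hold when 1 array was left out, although all 61 kept their sign. Of the 19 detected higher calls, 6 kept an adjusted p under 0.05 without array 2 of day 9 and 6 without array 4 of day 9. Without arrays 1, 3 and 4 of day 3, 6, 8 and 6 kept it. Each such fit also had 1 array fewer.

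The arrays themselves did not separate by day in any of 8 measures. The number of miRNAs well above background was 207, 196, 265 and 277 on the day 3 arrays and 214, 185, 300 and 184 on the day 9 arrays, and the groups overlapped (exact two-sided permutation p = 0.771 over 70 allocations, where 0.0286 is the smallest possible). The 75th percentile used for scaling was 118, 106, 220 and 217 intensity units on day 3 and 118, 108, 292 and 73.5 on day 9. Spike-in signals, local background, negative controls, outlier spots and spot-to-spot variation gave exact p from 0.143 to 0.857. Every adjusted p over the 8 measures was 0.857, but a measure that separated alone could not have passed 0.05 after adjustment. Local background was 17, 16, 15 and 14.5 intensity units on day 3 and 20, 20, 17 and 16 on day 9. It was higher on day 9 in each slide column, which the test did not use. Brightness varied so much among arrays of one day that, before scaling, the groups overlapped for each of the 27 calls detected on every array. After scaling 26 of them did not overlap. The 160 detected miRNAs differed between 2 arrays of different days by a median of 0.28 to 0.58 and between 2 arrays of the same day by 0.19 to 0.39.

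miR-21a-5p, among the most abundant miRNAs of many mouse tissues and of platelets, was the detected miRNA that rose most. Its level was 2.48, 2.85, 2.20 and 2.39 on day 3 and 3.63, 3.45, 3.17 and 3.66 on day 9. All 4 day 9 arrays lay above all 4 day 3 arrays, a 1.99-fold rise (log2 0.99, SE 0.19, adjusted p = 0.00252). The miRNA is read from chr11:86584120-86584141 on the minus strand, within the annotated span of Vmp1.

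miR-222-3p, which with miR-221-3p is known for vascular smooth muscle and endothelium, was at -3.03, -2.47, -3.04 and -3.10 on day 3 and -1.91, -2.33, -1.94 and -2.13 on day 9. The rise was 1.78-fold (log2 0.83, SE 0.16, adjusted p = 0.00252), and array 2 of day 3 came closest to the day 9 values. Its cluster partner miR-221-3p (both chromosome X, minus strand) had non-overlapping groups with means of -2.73 ± 0.14 and -2.22 ± 0.09 (SD, n = 4), a difference of 0.51 that missed the threshold (adjusted p = 0.0627).

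miR-7020-5p, a less studied entry within the annotated span of Aldh4a1 on chromosome 4, was at -2.02, -1.63, -1.39 and -1.37 on day 3 and -0.74, -1.06, -0.13 and -0.63 on day 9. Every day 9 array was above every day 3 array, and the rise was 1.95-fold (log2 0.96, SE 0.18, adjusted p = 0.00252). Its other probe, well above background on 6 of the 8 arrays, gave a smaller rise of 0.28 on the log2 scale.

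miR-29b-3p, whose family is known to repress collagen genes, was at -1.49, -1.28, -1.49 and -1.49 on day 3 and -0.70, -0.81, -1.01 and -0.67 on day 9. The rise was 1.56-fold (log2 0.64, SE 0.15, adjusted p = 0.0139). The other members with this seed were not called: miR-29a-3p differed by 0.41 (adjusted p = 0.0627) and miR-29c-3p by 0.25 (adjusted p = 0.446).

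miR-709 was at 4.67, 4.75, 4.77 and 4.94 on day 3 and 5.47, 4.98, 5.66 and 5.46 on day 9. Array 2 of day 9 was close to the highest day 3 array, and the rise was 1.52-fold (log2 0.61, SE 0.18, adjusted p = 0.0311).

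**Figure D1:**
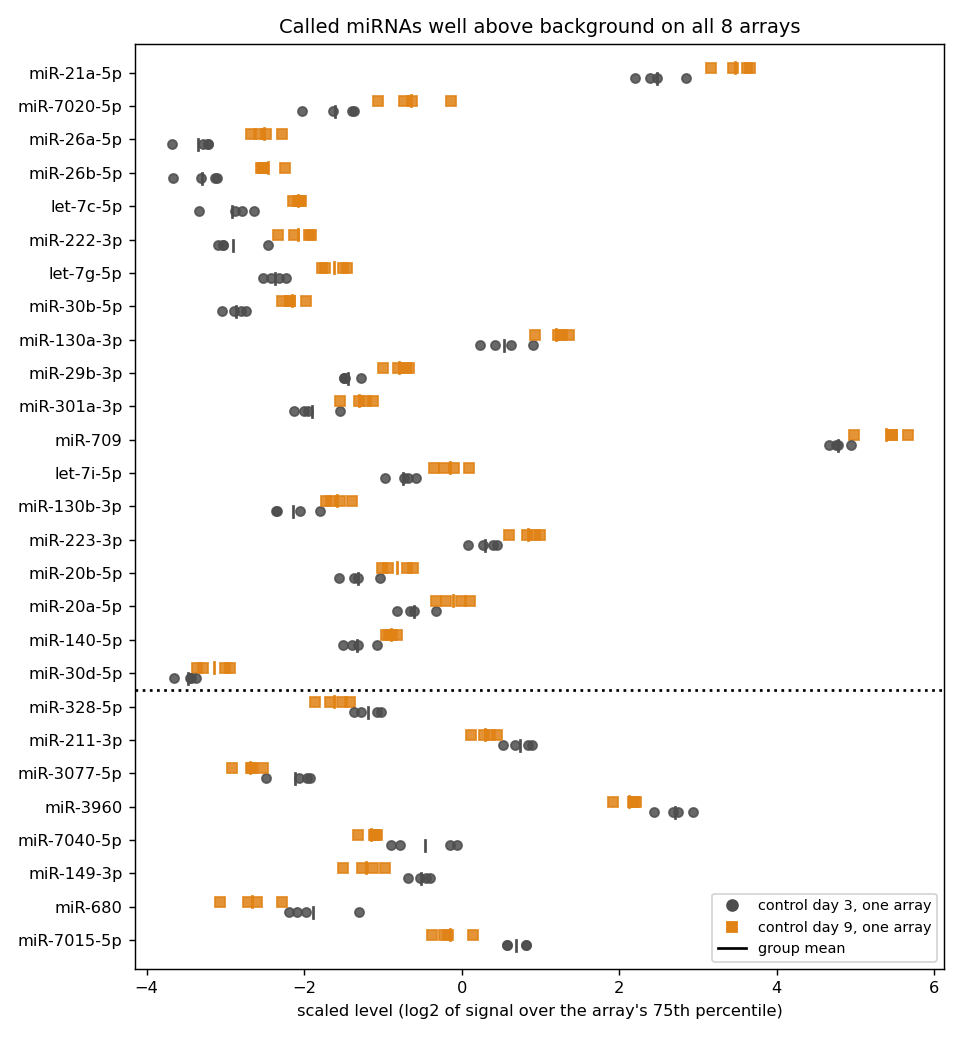
Scaled level (log2) on each of the 4 control day 3 arrays (grey circles) and 4 control day 9 arrays (orange squares) for the 27 calls detected on every array, with group means as vertical bars and the dotted line between higher and lower calls. The groups are apart for 26 of the 27.

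The let-7 family, which marks differentiated cells and opposes growth regulators such as Lin28 and Hmga2, had 4 of 9 tested members called higher and none lower. This and the family counts below stand beside 9.46% called higher and 4.28% called lower over all 444 miRNAs tested. All 9 members (let-7a to let-7i as on the array, and miR-98-5p) had positive differences, with a median of 0.66 beside 0.04 over all miRNAs. The 7 members detected on every array ran from 0.45 to 0.83 with the same median. The call of let-7e-5p and the value of miR-98-5p lie below background on all 8 arrays, so their differences are directions only. let-7c-5p and let-7i-5p were not called without array 2 of day 9 (adjusted p = 0.0566 and 0.0651), where their log2 differences were 0.82 and 0.52. let-7g-5p was at -2.42, -2.32, -2.23 and -2.53 on day 3 and -1.77, -1.50, -1.74 and -1.46 on day 9, a 1.69-fold rise (log2 0.76, SE 0.14, adjusted p = 0.00252). let-7i-5p rose 1.51-fold (adjusted p = 0.0206), from -0.74 ± 0.17 to -0.15 ± 0.19. let-7c-5p rose 1.78-fold (adjusted p = 0.0225), from -2.91 ± 0.30 to -2.08 ± 0.05, its day 9 arrays lying between -2.14 and -2.04. The remaining 5 members included let-7b-5p (0.45, adjusted p = 0.0521), let-7d-5p (0.51, adjusted p = 0.0523) and let-7a-5p (0.68, adjusted p = 0.0627), which did not pass. The family is spread over several chromosomes: let-7g within the span of Wdr82 on chromosome 9, let-7i on chromosome 10, and let-7c at 2 loci on chromosomes 15 and 16. Mature let-7 members differ by few bases, so signal of one probe can include relatives.

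Both miR-26 members rose. miR-26a-5p was at -3.68, -3.23, -3.28 and -3.23 on day 3 and -2.29, -2.57, -2.68 and -2.49 on day 9, a 1.80-fold rise (log2 0.85, SE 0.23, adjusted p = 0.025). miR-26b-5p was at -3.66, -3.13, -3.11 and -3.31 and then -2.53, -2.53, -2.54 and -2.24, also a 1.80-fold rise (log2 0.84, SE 0.23, adjusted p = 0.0249). For both, array 1 of day 3 was the lowest of the 8. Neither was called without array 2 of day 9 (adjusted p = 0.0607 and 0.0566), although their log2 differences were then 0.87 and 0.87. The 3 loci lie within the annotated spans of Ctdsp1, Ctdsp2 and Ctdspl, related phosphatase genes.

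All 4 members of the miR-130 and miR-301 family, known for roles in vascular and growth control, were called higher, with a median of 0.63. None of the 4 was called without array 2 of day 9 (adjusted p = 0.0651 to 0.0800). The log2 differences were then 0.65 for miR-130a-3p, 0.58 for miR-130b-3p and 0.55 for miR-301a-3p. Each of the 4 was called in only 2 or 3 of the 8 fits that left out 1 array. miR-130a-3p was at 0.42, 0.90, 0.23 and 0.62 on day 3 and 1.36, 1.22, 0.93 and 1.27 on day 9 (log2 0.65, SE 0.20, adjusted p = 0.0373), so its groups nearly met. miR-301a-3p rose by 0.61 (adjusted p = 0.0249) and miR-130b-3p by 0.56 (adjusted p = 0.0407). miR-301b-3p, below background on all 8 arrays, was called higher (adjusted p = 0.023), which can only be read as a direction. miR-721, which has the same seed and a different body, went the other way without passing (-0.25, adjusted p = 0.61).

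In the miR-30 family, linked to differentiated epithelium and muscle, 3 of 5 members were higher and none lower. miR-30b-5p was at -2.80, -2.74, -2.89 and -3.04 on day 3 and -2.28, -1.98, -2.18 and -2.18 on day 9, a 1.64-fold rise (adjusted p = 0.0249). miR-30e-5p rose by 0.58 (adjusted p = 0.0225) with 7 of the 8 arrays well above background, and miR-30d-5p by 0.33 (adjusted p = 0.0411), the smallest rise among the detected calls and of the opposite sign under 1 of 9 other scalings. miR-30c-5p (0.39, adjusted p = 0.0808) and miR-30a-5p (0.21, adjusted p = 0.382) did not pass. None of the 3 calls held without array 2 of day 9 (adjusted p = 0.0566 to 0.0718). Nor did those of miR-20a-5p, miR-20b-5p, miR-322-5p, miR-142a-5p and miR-223-3p described next (0.0766 to 0.123). Without that array miR-30b-5p, miR-30e-5p and miR-30d-5p differed by 0.65, 0.52 and 0.38, and the others by 0.42 to 0.62.

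The miR-17 superfamily, growth-promoting miRNAs of 3 paralogous clusters, was split: 3 of 10 tested members were higher, none lower, and the median was 0.32. miR-20b-5p rose 1.41-fold, from -1.31, -1.03, -1.36 and -1.55 to -0.94, -0.62, -1.01 and -0.70 (adjusted p = 0.0326). miR-20a-5p rose by 0.49 (adjusted p = 0.0336) with groups that overlapped at one array, and miR-18a-5p was called higher (adjusted p = 0.00713) with 1 of 8 arrays well above background. The Mir106b cluster, within the span of Mcm7 on chromosome 5, showed no call. miR-106b-5p, the miRNA named in the series title, was at -1.07, -0.97, -0.85 and -1.49 on day 3 and -1.37, -0.48, -1.10 and -0.99 on day 9, fully overlapping. Its difference was 0.11 (95% interval -0.28 to 0.51, adjusted p = 0.814), with the sign reversed under 4 of 9 other scalings. Its cluster partners, named outside the naming rule, were not called: miR-93-5p differed by -0.02 (adjusted p = 1) and miR-25-3p by -0.21 (adjusted p = 0.671).

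In miR-15/16, which restrains the cell cycle, miR-322-5p alone of 6 was called (0.64, adjusted p = 0.0326). None of the 5 tested members of miR-23/27/24 was called; their differences ran from 0.14 to 0.39, and the median turned negative under 3 of 9 other scalings. Of the 4 miR-181 members, miR-181d-5p was called higher (adjusted p = 0.00076) with 1 of 8 arrays well above background, while the other 3 lay at the floor on all 8 arrays, where values have no order.

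**Figure D2:**
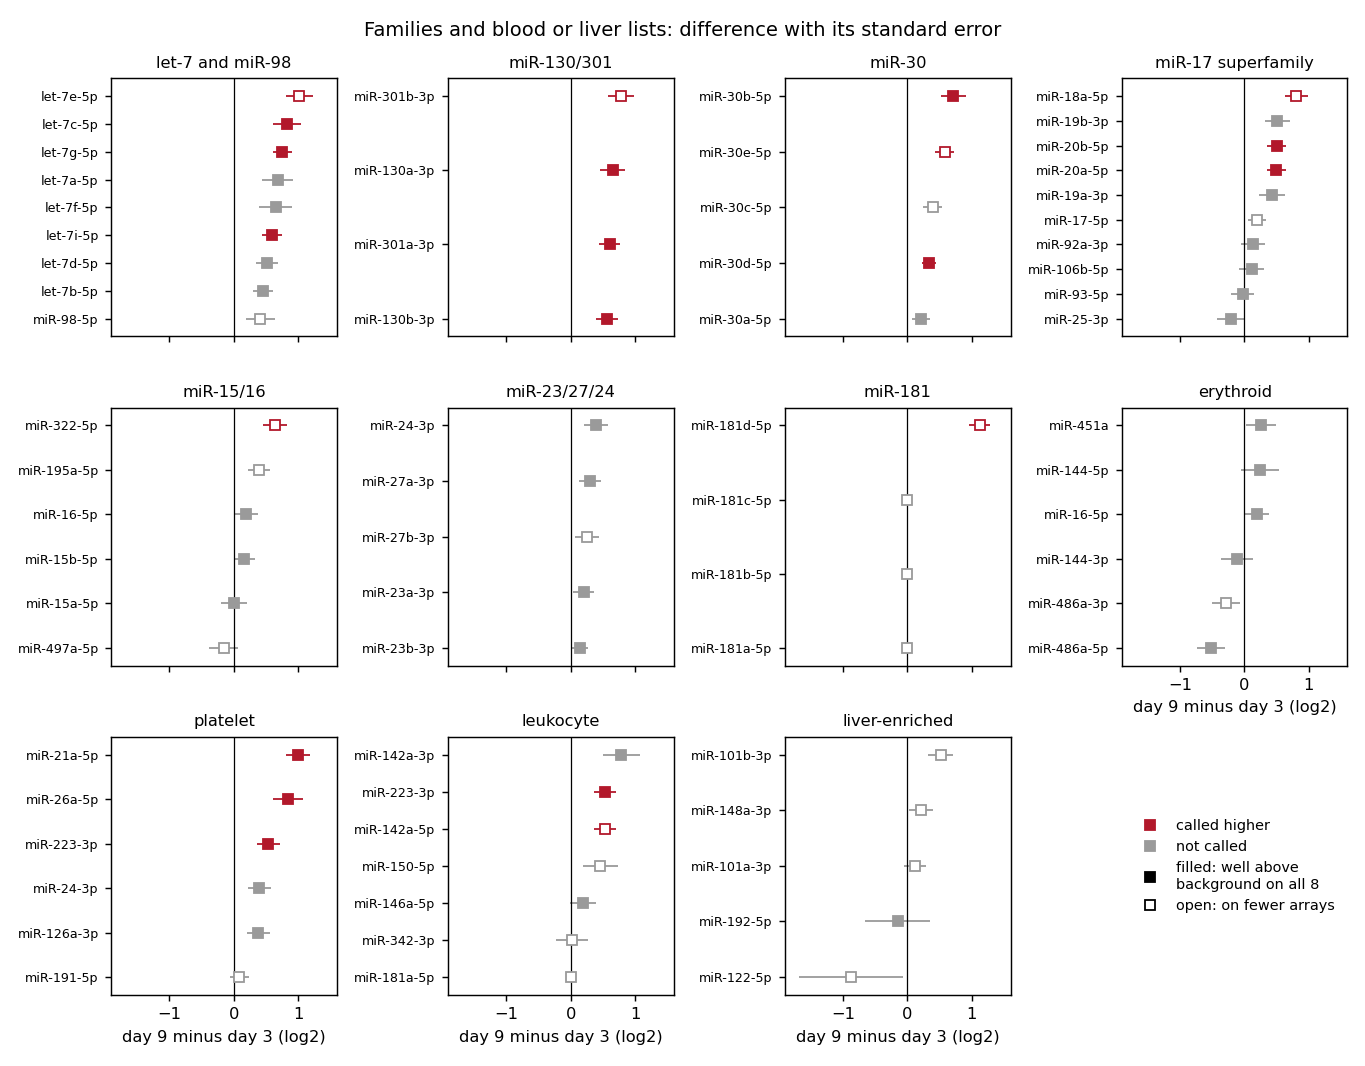
Difference between days (log2, control day 9 minus day 3, x axis) with its standard error for each tested member of 7 families and 4 source lists; red marks higher calls, grey no call, and filled squares miRNAs detected on every one of the 8 arrays. All 9 let-7 and all 4 miR-130 and miR-301 members sit to the right of 0, the erythroid members on both sides.

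Of the 19 lower calls, 8 were detected on every array. miR-149-3p, within the span of Gpc1 on chromosome 1, was at -0.46, -0.68, -0.53 and -0.40 on day 3 and -1.12, -1.51, -1.27 and -0.98 on day 9, with no overlap. It fell by 0.70 on the log2 scale, 1.63-fold (SE 0.17, adjusted p = 0.0138). miR-3960 was at 2.68, 2.45, 2.75 and 2.94 on day 3 and 2.19, 1.92, 2.17 and 2.21 on day 9 and fell by 0.58 on the log2 scale (adjusted p = 0.0225). miR-7015-5p, within the span of Smap2, was at 0.57, 0.81, 0.57 and 0.82 and then -0.22, -0.37, -0.17 and 0.15, which was the strongest fall of a detected miRNA at 1.80-fold (adjusted p = 0.0249).

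miR-7040-5p spread widely on day 3 (-0.79, -0.89, -0.15 and -0.06) and narrowly on day 9 (-1.11, -1.31, -1.10 and -1.08), and fell by 0.68 on the log2 scale (adjusted p = 0.0267). miR-3077-5p fell by 0.58 (adjusted p = 0.035), miR-680 by 0.77 (adjusted p = 0.0416), miR-211-3p by 0.44 and miR-328-5p by 0.43 (adjusted p = 0.0444 each). Array 2 of day 9 was the lowest of its group for all 8 of these miRNAs, and without that array none of the 8 kept an adjusted p under 0.05. Without array 1, 2, 3 or 4 of day 3, 4, 8, 2 and 1 of them kept it. Without array 1, 3 or 4 of day 9, 6, 6 and 3 did. All 8 kept their sign in each of these fits. Over all miRNAs, 1 lower call and 18 higher calls were made without array 2 of day 9. Its negative-control spots were also the brightest of the 8 arrays, at 27.3 intensity units against 20.1 to 22.0 on the others; the part of this in the lower calls was not tested.

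Of the 61 calls, 27 were well above background on only some of the 8 arrays and 7 on none. A fold of the first kind rests in part on signals below background, and one of the second kind is not measured. miR-338-3p, within the span of Aatk, had the smallest adjusted p together with miR-181d-5p (0.00076 each). Its means were -5.64 and -4.28, with 1 of 8 arrays well above background, so the difference is a direction only. miR-181d-5p, miR-652-3p and miR-18a-5p also had 1 of 8 arrays well above background, a day 9 array, and their differences are directions too. let-7e-5p and miR-466h-3p were below background on all 8 arrays, and both had all day 9 arrays above all day 3 arrays (adjusted p = 0.00501 and 0.00102). miR-669f-3p, like miR-466h-3p a member of the rodent Sfmbt2 intron cluster, rose by 0.83 with 5 of 8 arrays well above background (adjusted p = 0.0129), and turned negative under the software's total gene signal. Of 61 arms on the array listed by name as Sfmbt2 families, 8 were tested, 3 were higher and none lower. Over all 444 miRNAs tested, 9.46% were higher. The list follows names and not loci: the tested arms of miR-466i are in it, and that hairpin lies within the span of Cdk13 on chromosome 13.

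The second probe of a miRNA gave a check within the arrays. The 27 detected calls had 29 other probes, all of which differed between days in the same direction as the one used, and of these 18 were themselves well above background on all 8 arrays. The sizes were not always alike. The other probe gave 0.28 against 0.96 for miR-7020-5p and -0.30 against -0.58 for miR-3077-5p. For miR-30d-5p it gave more, 0.50 against 0.33. These probes read the same RNA, so they are no further replicates.

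Lists of miRNAs typical of blood cells and tissues were read beside the calls. Over all 444 miRNAs tested, 9.46% were called higher and 4.28% lower. The platelet list had 3 of 6 members higher (miR-21a-5p, miR-26a-5p and miR-223-3p), none lower, and a median of 0.47. miR-223-3p, a myeloid and platelet miRNA, was at 0.27, 0.40, 0.09 and 0.44 on day 3 and 0.99, 0.92, 0.60 and 0.83 on day 9, a 1.45-fold rise (adjusted p = 0.0474). The leukocyte list, which also holds miR-223-3p, had 2 of 7 tested members higher, the other being miR-142a-5p (0.53, adjusted p = 0.0465); miR-142a-3p differed by 0.79 without passing (adjusted p = 0.0746). The summed level of the detected platelet members was 2.75 to 3.30 on day 3 and 3.56 to 4.01 on day 9, and that of the leukocyte members 1.13 to 1.30 and 1.67 to 1.95, neither overlapping. The platelet sum rests largely on miR-21a-5p, whose mean was 2.48 and 3.47 and which is also in the fibrosis list. The vascular sum did not overlap either (-0.97 to -0.86, then -0.43 to -0.33). Nor did the stellate cell and fibrosis sum (2.66 to 3.21, then 3.47 to 3.93). The brain and epithelial sums, each of 1 detected member, were also apart. The separation was therefore not particular to the platelet and leukocyte lists, while the red cell, liver-enriched and muscle sums overlapped. The muscle sum held only miR-1a-3p, well above background on 1 of the 8 arrays. Of the 4 members in the liver-enriched sum, 1 was detected on every array.

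Red cell miRNAs, which rise in serum when blood is lysed, showed no call in either direction among 6. Their summed level ran from 5.06 to 5.83 on day 3 and from 5.05 to 6.04 on day 9. miR-451a, the dominant red cell miRNA, was at 4.69, 5.22, 5.59 and 4.92 and then 4.83, 5.82, 5.45 and 5.37, and miR-486a-5p at 1.97, 1.94, 1.97 and 1.64 and then 0.68, 1.90, 1.51 and 1.34 (adjusted p = 0.118). The liver-enriched list had no call among 5 tested members. miR-122-5p, the hepatocyte miRNA, was at -2.89, -4.16, -3.03 and -2.49 on day 3 and -4.98, -4.01, -4.30 and -2.78 on day 9, well above background on 5 of the 8 arrays, and did not differ beyond its spread (adjusted p = 0.626).

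The stellate cell and fibrosis list had 2 of 6 tested members higher (miR-21a-5p and miR-29b-3p) and the vascular list 1 of 6 (miR-222-3p). Neither had a lower call. These counts were not tested against the 9.46% called higher over all 444 miRNAs. Muscle, brain and epithelial miRNAs were largely below background: 6 of 7, 4 of 5 and 6 of 7 members were not well above background on any of the 8 arrays. None of their tested members was called, and no pancreas miRNA was tested. The muscle and heart list holds miR-208a by its 3p arm only. The 5p arm, miR-208a-5p, was called lower (log2 -1.01, adjusted p = 0.0326), the largest fall among the 61 calls. It was well above background on 4 day 3 arrays and 2 day 9 arrays, so its size rests in part on signals below background. Of 83 arms of the imprinted Dlk1-Dio3 cluster, 6 were tested and none was called.

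The calls separated by base composition. Of the 444 miRNAs, 373 had a RefSeq mature sequence, 84.0% of them. The median share of G and C bases was 40.9% in the 33 higher calls with a sequence, 66.7% in the 15 lower calls and 56.0% in all. Below 40% G and C, 7 of 36 were higher and none lower, and from 40% to 50%, 17 of 76 were higher and none lower. From 60% to 70%, 3 of 99 were higher and 7 lower, and at 70% or more, 1 of 42 was higher and 5 lower.

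Over the 143 of these miRNAs detected on every array, the difference fell as G and C rose (Pearson r = -0.58, Spearman rho = -0.62, across miRNAs, which share the same 8 arrays and are not independent). The median difference in that set was 0.51 under 40% G and C, 0.26 from 40% to 50%, 0.07 from 50% to 60%, -0.07 from 60% to 70% and -0.19 at 70% or more. Exceptions included miR-7020-5p, higher at 62.5%, and miR-7015-5p, lower at 56.5%. Each array's deviation from the mean of the 8 arrays was also set against composition. The slopes of day 3 and day 9 then offset each other, so their signs restate the difference between days. Array 2 of day 9 had the steepest slope, -0.16 log2 per 10 percentage points. The other day 9 arrays had -0.06, -0.05 and -0.04, and the day 3 arrays 0.01 to 0.13. Without array 2 of day 9 rho was -0.53. Whether composition acts through the assay or through which miRNAs vesicles carry was not tested.

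**Figure D3:**
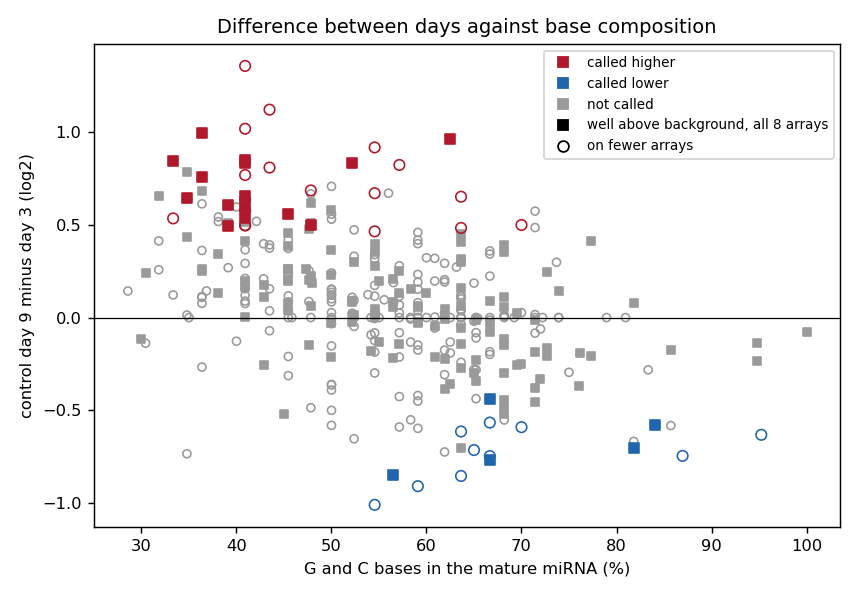
Difference between days (log2, control day 9 minus day 3, y axis) against the percentage of G and C bases in the mature miRNA (x axis) for 373 miRNAs with a RefSeq sequence; red marks higher calls, blue lower calls, grey no call, and filled squares miRNAs detected on every one of the 8 arrays. Higher calls lie mostly at the left, around 40.9%, and lower calls at the right, around 66.7%.

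The miRNAs were also grouped by their entry number, which follows the order of cataloguing, in 6 ranges. Of 218 tested entries in the lowest range, which holds most of the conserved families above, 39 were higher (17.9%) and 6 lower (2.75%). Over all 444 the shares were 9.46% and 4.28%. The median difference of the lowest range was 0.18 and its median G and C share 47.8%. Of 34 entries in the third range, none was higher and 3 were lower (median -0.10, G and C 62.8%). The median of the lowest range was negative under 1 of 9 other scalings and 0 under 5, and that of the third range was positive under 1. In the second range 2 were higher and 2 lower of 28, in the fourth none and 1 of 41, in the fifth 1 and 5 of 82, and in the highest none and 2 of 41. The lower calls named from these ranges by their adjusted p included miR-7039-5p (-0.91, adjusted p = 0.0225) and miR-5131 (-0.75, adjusted p = 0.0265), which turned positive under the software's total gene signal.

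Vehicle arrays of day 21 lay on another slide, so for them day and slide cannot be told apart, and their levels are given side by side with no test. miR-21a-5p stood at 2.48 ± 0.28, 3.47 ± 0.23 and 3.25 ± 0.40 on days 3, 9 and 21. let-7g-5p stood at -2.37 ± 0.13, -1.62 ± 0.16 and -1.32 ± 0.36, and miR-26a-5p at -3.35 ± 0.22, -2.50 ± 0.16 and -2.21 ± 0.53. miR-149-3p stood at -0.52 ± 0.12, -1.22 ± 0.23 and -1.13 ± 0.24, and miR-7015-5p at 0.70 ± 0.14, -0.15 ± 0.22 and 0.35 ± 0.25. The day 21 mean was nearer to day 9 than to day 3 for each of these but miR-7015-5p, which was nearer to day 3. miR-106b-5p stood at -1.10 ± 0.28, -0.98 ± 0.37 and -0.75 ± 0.23.

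The day 9 to day 3 difference was also set against the same difference in TSN mice, whose arrays of those days lay on 2 slides. The control and TSN differences were unlike each other for 84 of the 444 miRNAs (18.9%), among them 19 of the 61 calls and 7 of the 27 detected calls. The calls were picked by the control difference, which is part of this comparison. The TSN arrays were far brighter: 427 to 447 miRNAs were well above background on day 9 against 184 to 300 in controls, no TSN array of day 3 had as few as any control array of that day, and the scaling percentile was 737 to 1538 and 1390 to 1690 intensity units against 106 to 220 and 73.5 to 292. The part of this gap in the differences was not tested. miR-26a-5p rose by 0.85 in controls and differed by -1.18 in TSN (difference between them 2.03, SE 0.33, adjusted p = 0.00037). miR-709 gave 0.61 and -0.72 (adjusted p = 0.00108) and miR-21a-5p 0.99 and -0.02 (adjusted p = 0.0109). For miR-30b-5p the values were 0.71 and 0.74 (difference -0.02, SE 0.27, adjusted p = 0.976), and for miR-20b-5p 0.50 and 0.53 (difference -0.04, SE 0.21, adjusted p = 0.934). miR-106b-5p gave 0.11 in controls and 1.11 in TSN, which differed from each other (SE 0.27, adjusted p = 0.0119).

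**Figure D4:**
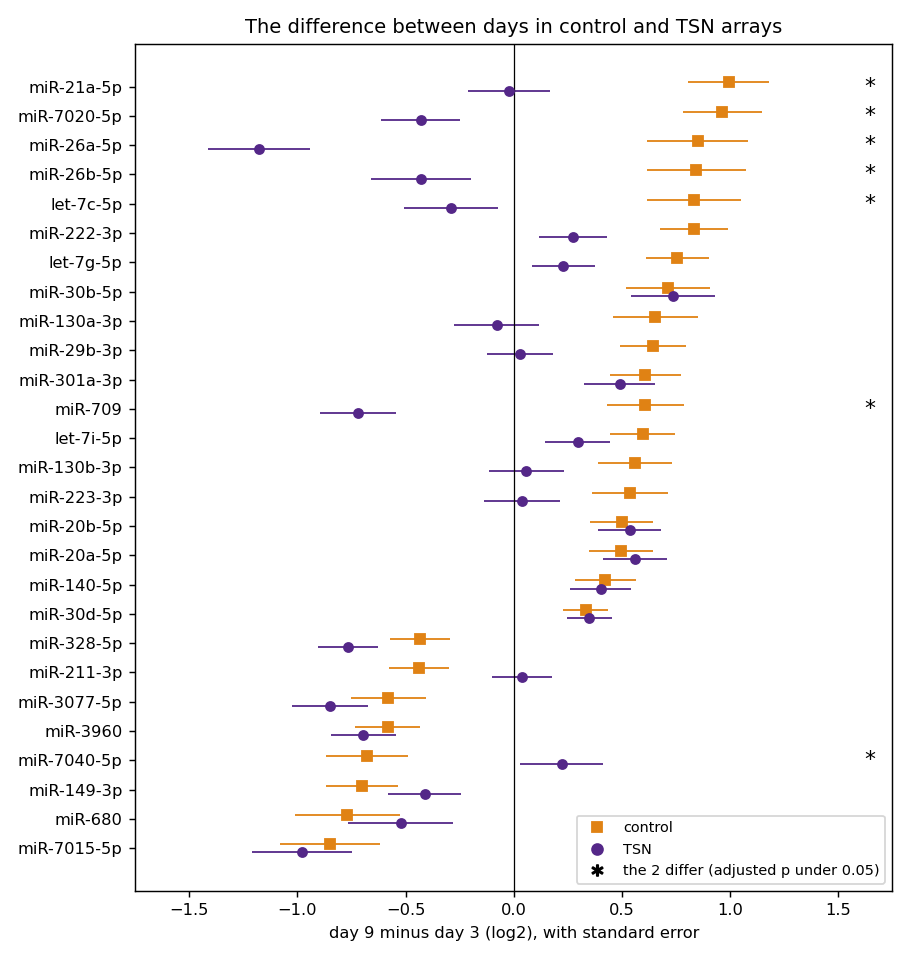
Day 9 minus day 3 (log2, x axis) with its standard error in control arrays (orange squares) and TSN arrays (purple circles) for the 27 detected calls; an asterisk marks the 7 whose control and TSN differences were unlike each other (limma adjusted p under 0.05). Several miRNAs higher on day 9 in controls, such as miR-26a-5p and miR-709, lie left of 0 in TSN.

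The number of calls rested on the scaling and on single arrays. No miRNA was called under the 75th percentile over all probes, the hybridisation spike-ins, no scaling or normexp background correction, with 42, 6, 6 and 12 miRNAs at an unadjusted limma p under 0.05. These ways have limits of their own. The 75th percentile over all spots was 2.04 to 2.86 intensity units on the 8 arrays, beside an additive error estimate of 1.6 to 2.2. With no scaling the brightness differences among arrays remain, and normexp used an offset of 50. The part of these in the counts was not tested. The authors' values gave 9 higher and 19 lower, which moves the share of higher calls from 68.9% to 32.1%. That share was 33.3% of the calls with labelling spike-ins and 50% after quantile normalization. In the authors' values, 8 of the 19 higher and 8 of the 8 lower detected calls were called too. All 27 detected calls kept their direction under each of the 9 other scalings, apart from miR-30d-5p under the percentile over all probes. The 5 detected miRNAs miR-21a-5p, miR-222-3p, miR-7020-5p, let-7g-5p and miR-29b-3p, were called whichever of the 8 arrays was left out and also in the authors' values. miR-877-5p, picked out after its values were seen, was the one lower call that no left-out array removed (log2 -0.71, adjusted p = 0.0129), with 3 of 8 arrays well above background and the other sign under 1 of 9 scalings.

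**Figure D5:**
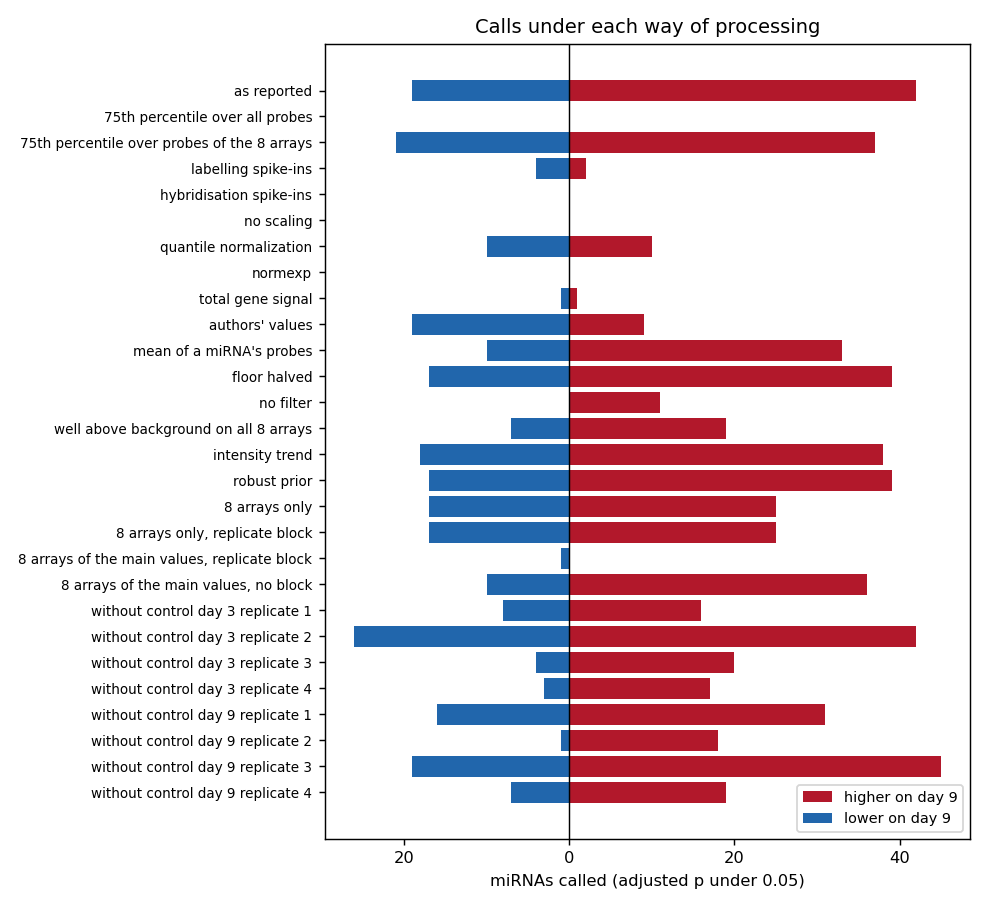
Number of miRNAs called higher (red, to the right) and lower (blue, to the left) on day 9 under each way of processing, with the values as reported in the top row. Counts run from none under 4 ways of processing to 45 higher and 26 lower in different rows.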

How the data were processed

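Serum exosome RNA was labelled with Cy3 and hybridised to one-colour mouse miRNA arrays, per the labels' protocols. The deposited values are spot intensity. Background and a spatial trend were removed with Feature Extraction 10.7.1.1, per the file headers, and arrays were not scaled to each other. The authors' processed values, taken as log2 from their rise with the scanner signal (r of 0.955 to 0.981 across miRNAs, column medians 4.39 to 4.40), have an unstated scale and centring. Control and outlier spots were dropped, spots averaged per probe, and arrays scaled as the report states. A floor of -6.21 (log2) was set, and the brightest probe stood for a miRNA; one was well above background on an array when over a 0.5 share of a probe's spots was. limma 3.58.1 (R 4.3.3) fitted all 6 groups, two-sided, with Benjamini-Hochberg adjustment over 444 miRNAs. Array measures used exact permutation tests. The number of arrays limits the precision.

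The members, lists and named miRNAs were chosen with earlier results of these data known. Named were miR-106b-5p, up to 12 calls per direction with the smallest adjusted p (detected on 8 arrays, groups apart), the 2 smallest adjusted p of each of 25 lists, and relatives by seed or cluster. miR-451a, miR-122-5p, miR-142a-3p, miR-652-3p, miR-93-5p, miR-25-3p, miR-208a-5p and miR-877-5p fall outside that rule and were chosen after their values were seen. The fit was tested on simulated data. RefSeq sequences and annotated spans are of GRCm38.p6. Python 3.11.15 was used with numpy 2.4.6, pandas 2.3.3 and scipy 1.17.1.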

Additional observations from a re-analysis of the deposited data

Results flagged for a closer look

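Among 81 sets of 4 arrays checked for one array far from the other 3, 9 stood out, and chance gives about 1 in 20. On day 3, array 2 was high for miR-222-3p (-2.47 against -3.10 to -3.03) and for miR-29b-3p (-1.28 against -1.49 on each of the others), array 1 was low for miR-26a-5p (-3.68 against -3.28 to -3.23), and array 4 was low for miR-486a-5p (1.64 against 1.94 to 1.97). On day 9, array 4 was high for miR-26b-5p (-2.24 against -2.54 to -2.53), array 3 was low for miR-24-3p (-0.063 against 0.35 to 0.41), and array 2 was low for miR-3960 (1.92 against 2.17 to 2.21) and miR-7040-5p (-1.31 against -1.11 to -1.08). Array 2 of day 9 also had the brightest negative controls of its group (27.3 against 20.3 to 21.3 intensity units).

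The day 9 minus day 3 difference was unlike in control and TSN mice (limma interaction, adjusted p under 0.05) for 14 of the 38 named and called miRNAs. Over all 444 miRNAs tested it was unlike for 84 (18.9%). The 38 were called on their control difference, which is part of the interaction, so their count is not a result about these miRNAs. The control difference exceeded the TSN difference by 2.03 for miR-26a-5p, 1.39 for miR-7020-5p and 1.33 for miR-709 (log2). It exceeded it by 1.27 for miR-26b-5p, 1.12 for let-7c-5p, 1.01 for miR-21a-5p, 0.96 for miR-322-5p, 0.85 for miR-669f-3p and 0.84 for miR-142a-5p. For miR-7040-5p the value was -0.90. The fit gave 2.36 for miR-338-3p, 2.10 for miR-466h-3p, 1.86 for let-7e-5p and 1.25 for miR-181d-5p, but at most 1 of their 8 control arrays was well above background, so these are directions, not measured sizes. The TSN arrays of days 3 and 9 lay on different slides and were far brighter than the control arrays, and the part of slide and signal in these differences was not tested.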

How the results depend on the processing

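Beside 42 higher and 19 lower calls, the counts were 2 and 4 with labelling spike-ins, 10 and 10 after quantile normalization, 1 and 1 with total gene signal, 33 and 10 with the mean of a miRNA's probes, 11 and 0 with no filter (161 at an unadjusted limma p under 0.05) and 19 and 7 over the 160 miRNAs detected on all 8 arrays; the causes were not tested. The authors' values gave 9 higher. The percentile over all probes, hybridisation spike-ins, no scaling and normexp gave 0 and 0. The median over all miRNAs shifted from 0.04 to -0.06 with the percentile over all probes, 0.17 with normexp and 0.19 with total gene signal. Leaving out each array in turn gave 16 to 45 higher and 1 to 26 lower calls, with all 61 reported calls keeping their sign: 16 and 8 without day 3 array 1, 20 and 4 without array 3, 17 and 3 without array 4, and 18 and 1 without day 9 array 2, 19 and 7 without array 4. Fitted, scaled and filtered on the 8 arrays alone, 198 miRNAs gave 25 higher and 17 lower calls, and with the replicate number as a block 25 and 17 again; on the 8 arrays of the reported values the replicate block gave 0 and 1 (110 at an unadjusted p under 0.05), and no block 36 and 10. The fit of the reported values with no block and the blocked fit on 198 miRNAs were chosen after seeing the data. Same-numbered arrays share a slide column, and their deviations from the group means correlated at 0.16, 0.54, 0.55 and -0.54 for numbers 1 to 4, so the numbers were not taken to pair the arrays. Signs turned for miR-1931 (0.10) and miR-7666-3p (0.15) with normexp, and with total gene signal for miR-669f-3p (-1.23), miR-5131 (1.91), miR-7666-3p (0.26) and miR-8109 (0.76). The day difference in the number of miRNAs above background was -15.5, and -13 or -0.75 when all or any of a probe's spots had to pass. Faint miRNAs, 144 of the 444 tested, were not above background on any of the 8 arrays.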
